A study of Mus musculus with 56 samples.

Results

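The genes described here are 10 genes of hepcidin and iron handling in mouse liver, taken by name from the gene-level expression table: Hamp, Hamp2, Bmp6, Id1, Tfr2, Tfrc, Trf, Fth1, Ftl1 and Slc40a1. All 10 of the 10 were among the 25415 genes listed and among the 25270 that could be tested, and none was at 0 in any library. Livers came from 56 female C57BL/6J mice, 9 weeks old, kept under 12 h of light and 12 h of dark and fed for 7 days either in the daytime only (daytime-restricted feeding, DRF) or at night only (nighttime-restricted feeding, NRF, the reference). Livers were taken every 4 h from ZT0 to ZT24 under each regimen (7 times), where ZT counts hours from lights on, with 4 animals at each time and thus 14 groups and 28 libraries per regimen. All mice carried the same background and no allele or agent besides the feeding window, and no group with free access to food is analysed here. RNA came from whole liver, so fewer cells of a type and less RNA per cell cannot be told apart.

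Hepcidin, the peptide hormone encoded by Hamp, is made by hepatocytes and causes the iron exporter ferroportin, encoded by Slc40a1, to be removed from the cell surface, which lowers the release of iron into plasma. Its transcription is raised by bone morphogenetic proteins such as BMP6 acting through SMAD factors, and by interleukin 6 acting through STAT3. Inside cells, iron regulatory proteins bind hairpins called iron-responsive elements, which slow the translation of ferritin and ferroportin mRNA when they lie in the 5′ untranslated region and protect the transferrin receptor mRNA when they lie in the 3′ untranslated region.

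The sequences behind these controls are shown because the members differ in them. Promoter windows from 250 bases before to 50 bases after the start were held for 7 members, as 11 windows from RefSeq (GRCm38.p6). In the Hamp and Hamp2 windows, which matched at 92.9% of 297 aligned bases, the motifs searched on both strands were GGCGCC, a BMP response element, TTCNNNGAA, a STAT motif, and CACGTG, the E-box. They do not overlap one another as matched here, and capitals mark the matches in stretches from 170 to 21 bases before the start.
Hamp (chr7:30944050-30944199, minus strand): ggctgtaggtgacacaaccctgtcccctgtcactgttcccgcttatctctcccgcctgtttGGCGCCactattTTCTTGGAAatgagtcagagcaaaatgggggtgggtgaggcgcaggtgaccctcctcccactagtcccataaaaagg
Hamp2 (chr7:30924202-30924351, minus strand): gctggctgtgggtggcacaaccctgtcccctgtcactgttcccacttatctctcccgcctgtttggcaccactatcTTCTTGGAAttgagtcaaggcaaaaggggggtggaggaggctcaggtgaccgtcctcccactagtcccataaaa
Hamp held GGCGCC beginning 109 bases before the start. At the aligned place Hamp2 carried the substitution G4A, counted from the first base of the motif and written Hamp base first, and its window held no GGCGCC. Both windows held a STAT match, TTCTTGGAA, beginning 97 bases before the start in Hamp and 94 bases in Hamp2. Among 32851 promoter windows, GGCGCC was present in 11.9%, TTCNNNGAA in 8.30% and CACGTG in 7.15%. The only other matches in windows of members were an E-box 127 bases before the start of Bmp6 and a GGCGCC 89 bases before a start of Tfrc. These matches are descriptions of letters and not measured binding sites.

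Iron-responsive elements were searched in the GRCm38 transcripts on the sense strand by their loop motif (a bulged C, 5 bases of any kind, CAGTG and 1 further base), with 5 of 5 bases on either side of the loop able to pair, a criterion added after the data were seen. They are shown because they divide the iron-responsive members into those with a site at the front and Tfrc with sites at the end of the message. Capitals mark the whole loop motif, from the bulged C to the base after CAGTG, including the 5 bases after the bulged C that were tested for pairing.
Fth1, 5′ UTR (chr19:9982729-9982758, plus strand): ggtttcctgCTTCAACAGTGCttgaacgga
Ftl1, 5′ UTR (chr7:45459781-45459810, minus strand): tgtgtcttgCTTCAACAGTGTttgaacgga
Slc40a1, 5′ UTR (chr1:45925467-45925496, minus strand): ttccaacttCAGCTACAGTGTtagctaagt
Tfrc, 3′ UTR (chr16:32631216-32631245, plus strand): gataattatCGGAAGCAGTGCcttccataa
Tfrc, 3′ UTR (chr16:32631595-32631624, plus strand): tcacattatCGGGAGCAGTGTcttccataa
Tfrc, 3′ UTR (chr16:32631660-32631689, plus strand): tgtctatatCGGAGACAGTGAtctccatat
Tfrc, 3′ UTR (chr16:32631707-32631736, plus strand): cgtaattatCGGGAACAGTGTttcccataa
Such a site was found in the 5′ untranslated region of 31 of 20916 genes (0.148%) and in the 3′ untranslated region of 129 of 21039 genes (0.613%). The other 6 members had 0 sites of this form in their untranslated and coding regions.

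Values are scaled counts, which sum to between 886318 and 1112270 per library and were rebuilt from the deposited values because those were compressed on a logarithmic scale. Recovered counts summed to 323.28 to 728.98 M (1 M is 1e6) per library, which is more than the sequencing depth, so they are not reads and no counting interval is given. The number of animals, 4 per group, sets the precision. Libraries of 1 group resembled each other, with Pearson r of each library with the rest of its group between 0.973 and 0.993. An index of the balance between long and short genes ran from -0.330 to 0.312 and moved with time of day, averaging -0.229 in DRF at ZT4 and -0.234 at ZT8 but 0.153 in DRF at ZT20 and 0.130 in NRF at ZT16. Hepatocyte markers (6 of 6 measured) summed to 98394 to 156100 per library, against 509 to 699 for sinusoidal endothelium (10 markers), 628 to 1370 for Kupffer cells (9 markers) and 647 to 924 for stellate cells (6 markers). Cholangiocyte, neutrophil and lymphocyte lists summed to at most 10.5, 1.73 and 3.22.

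Per kilobase of the length used, the mean scaled counts over 56 libraries ordered the members as Hamp 6715, Trf 5512, Hamp2 4217, Ftl1 368, Fth1 170, Tfr2 42.8, Slc40a1 7.17, Tfrc 3.52, Bmp6 2.16 and Id1 1.01. Hamp and Hamp2 lie on chromosome 7 (GRCm38, minus strand, positions 30942368 to 30944032 and 30922372 to 30924681). Because the members differ in length, levels are compared between genes only in that order, and all values below are scaled counts per gene.

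Under DRF, Hamp rose and fell over the day by several fold, with low values around lights on and high values early in the dark phase. At ZT0 the DRF animals had 1193, 549, 1981 and 818 scaled counts and the NRF animals 2272, 2948, 2501 and 4192. The highest DRF animal was below the lowest NRF animal at that time. At ZT4 the DRF values were 2495, 296, 1637 and 1258, against 2142, 5049, 2881 and 2806 under NRF. Here the groups overlapped through 1 DRF animal, and replicate 2 of DRF was the lowest of all 56 livers. At ZT8 DRF gave 2998, 2550, 2525 and 3410, and NRF 856, 2152, 3104 and 1030. By ZT12 the DRF animals reached 3580, 3673, 4390 and 4687, while NRF animals stood at 1918, 3926, 2640 and 1826. The DRF values at ZT16 were 4998, 4771, 4016 and 3763, and the NRF values 4160, 4034, 4068 and 4152. ZT16 was thus the highest time under both regimens, and the 4 NRF animals there had an SD of 62.1 scaled counts. At ZT20 DRF held 4782, 1960, 3705 and 3566, and NRF 3430, 2241, 2627 and 2335. At ZT24 DRF was back to 1277, 1460, 1560 and 1007, below all NRF values of 2423, 2856, 2844 and 1862.

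**Figure D1:**
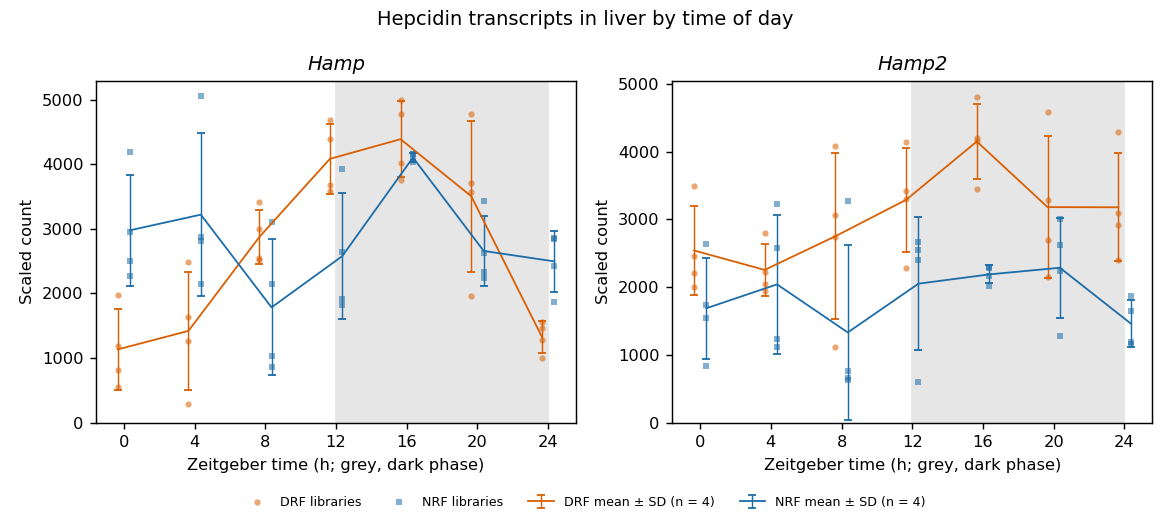
Scaled counts of Hamp and Hamp2 (vertical axes) against ZT in hours (horizontal axes) in each of 56 livers, with group means and SD of 4 animals per point for DRF and NRF, the regimens being offset sideways for display and the dark phase shaded. Hamp under DRF runs from a mean of 1135 at ZT0 to 4387 at ZT16, and Hamp2 has a DRF mean above the NRF mean at each of the 7 times.

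A cosine with a 24-h period fitted Hamp under DRF with a log2 amplitude of 1.13 ± 0.17 (SE, n = 28), a 4.80-fold range from peak to trough, and a peak at ZT14.3 ± 0.60 h (limma, adjusted p = 2.18e-05). Under NRF the amplitude was 0.35 ± 0.16 with a peak at 18.9 ± 1.6 h and did not pass the threshold of an adjusted p of 0.05 (adjusted p = 0.186). The difference in rhythm itself passed (adjusted p = 2.81e-04), whereas the rhythm-adjusted mean did not differ, at a log2 difference of -0.12 ± 0.16 (adjusted p = 0.751). At a given ZT, limma called Hamp 2.85-fold lower under DRF at ZT0 (log2 difference -1.51 ± 0.40, adjusted p = 0.00486) and 2.75-fold lower at ZT4 (-1.46 ± 0.40, adjusted p = 0.00547). The ZT4 call was lost without DRF replicate 2, with a log2 difference of -0.83 and an adjusted p of 0.0958. The ZT0 call was lost on the compressed deposited scale (log2 difference -0.17, adjusted p = 0.0600). The lengths behind Hamp and Hamp2 could be judged in 6 and 7 of 56 libraries. The size of their fold changes is thus less certain than for members judged in all 56. Across all genes 16.1% were called at ZT0 and 20.5% at ZT4. At ZT8 the log2 difference was 0.87 (adjusted p = 0.157), which passed only when NRF replicate 3 was left out (1.20, adjusted p = 0.0485). At ZT24, where the groups did not overlap, the log2 difference was -0.91 ± 0.40 and was not called (limma, adjusted p = 0.130). That comparison was called in 0 of 65 settings.

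Hamp2, the second mouse hepcidin gene, differed in its daily mean and was higher under DRF. The rhythm-adjusted mean was 1.77-fold higher under DRF (log2 difference 0.83 ± 0.16, limma, adjusted p = 2.92e-04), and it was called under each alternative tried. The 28 DRF livers ranged from 1123 to 4804 scaled counts with a median of 2991, and the 28 NRF livers from 595 to 3270 with a median of 1939. DRF exceeded NRF in mean at each of the 7 times, and the groups did not overlap at ZT16, with 4804, 3449, 4151 and 4198 against 2303, 2281, 2160 and 2014, and at ZT24, with 3095, 4296, 2920 and 2408 against 1190, 1654, 1865 and 1156. Of single times, ZT8 passed in limma (log2 difference 1.30 ± 0.42, 2.46-fold, adjusted p = 0.0331). At ZT8, DRF had 2747, 1123, 3062 and 4079 and NRF 637, 655, 3270 and 770, so 1 NRF animal stood among the DRF animals. Leaving out any of DRF replicates 1, 3 or 4 or NRF replicates 1, 2 or 4 ended this call, with adjusted p from 0.0755 (without DRF replicate 1) to 0.140 (without DRF replicate 4), as did the deposited scale (adjusted p = 0.0595). Hamp2 shares 89 exon bases with Gm44662 on the opposite strand, so without knowing whether counting used strand, reads of the pair cannot be told apart there.

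The fitted DRF amplitude of Hamp2 was below that of Hamp, a difference that was not tested. Its log2 amplitude was 0.37 ± 0.12 under DRF with a peak at 16.4 ± 1.1 h (limma, adjusted p = 0.0372) and 0.39 ± 0.21 under NRF (adjusted p = 0.296). The difference in rhythm did not pass (adjusted p = 0.830), and the DRF call was lost with the length index as a covariate (adjusted p = 0.142), in the F test over the 7 times (adjusted p = 0.179) and without the ZT0 libraries (adjusted p = 0.0702). It was also lost without DRF ZT4 replicate 2, 3 or 4, ZT12 replicate 1, ZT16 replicate 1, 3 or 4 or ZT20 replicate 3, with adjusted p from 0.05 to 0.0837. Markers of erythroid cells (7 of 8 measured) differed between regimens too, 5 of the 7 in rhythm-adjusted mean, with group sums of 791 to 1554 under DRF and 679 to 948 under NRF. Their means were 468 for Hba-a1, 331 for Hbb-bt, 109 for Hbb-bs, 47.9 for Alas2, 37.9 for Hba-a2 and 0.742 for Slc4a1. The part of these cells in the Hamp2, Ftl1 and Tfrc values was not tested.

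Bmp6, the ligand made largely by sinusoidal endothelial cells that raises hepcidin transcription, peaked in the light phase under DRF. At ZT8 the DRF animals had 13.2, 12.3, 13.1 and 12.8 scaled counts and the NRF animals 8.01, 8.49, 11.2 and 8.69. All DRF values were above all NRF values. At ZT12 the order was reversed, with 6.63, 7.27, 6.29 and 6.92 under DRF against 9.72, 8.73, 8.79 and 8.76 under NRF, again without overlap. In limma the log2 differences were 0.31 ± 0.10 at ZT4 (adjusted p = 0.0277), 0.46 ± 0.10 at ZT8 (adjusted p = 0.00111), -0.36 ± 0.10 at ZT12 (adjusted p = 0.0107) and -0.32 ± 0.10 at ZT20 (adjusted p = 0.0295). Across all genes, 13% were called at ZT8, 15.2% at ZT12 and 13.8% at ZT20. The DRF rhythm had a log2 amplitude of 0.44 ± 0.07 and a peak at 6.80 ± 0.55 h (adjusted p = 6.58e-05), the NRF rhythm 0.11 ± 0.06 (adjusted p = 0.278), and the difference passed (adjusted p = 0.00983). Endothelial markers summed to group means of 530 to 648 under DRF, lowest at ZT4 and highest at ZT20, and 559 to 643 under NRF. The part of these cells in the Bmp6 values was not tested.

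Limits of the Bmp6 values lie in its neighbour and in single libraries. Bmp6 shares 224 exon bases with Txndc5 on the opposite strand. Txndc5 had a mean of 365 scaled counts against 8.41 for Bmp6 and had its DRF peak at 6.72 ± 0.43 h and its NRF peak at 16.6 ± 0.50 h, and whether the counting used strand is not given in the sources used here. The Bmp6 call at ZT4 was lost without DRF replicate 1, 2 or 3 or NRF replicate 1 or 2 (adjusted p 0.0534 to 0.188) and with the length index as covariate (log2 difference 0.14, adjusted p = 0.288). The ZT20 call was lost without DRF replicate 2 or 3 or NRF replicate 2 or 4 (adjusted p 0.0695 to 0.144).

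Id1, a direct target of BMP signalling, did not follow the regimen at matched ZT. Its values ran from 0.448 to 2.50 scaled counts, and at ZT4 the DRF animals had 2.04, 1.59, 1.81 and 1.65 and the NRF animals 1.36, 1.42, 2.50 and 2.28. That time was the highest of the 7 under both regimens. The log2 amplitudes were 0.20 ± 0.07 under DRF (limma, adjusted p = 0.0892) and 0.22 ± 0.09 under NRF (adjusted p = 0.144), with a difference that did not pass (adjusted p = 0.880). An F test over the 7 times called Id1 under both (limma, adjusted p = 0.0280 and 0.0359). None of its 7 comparisons at the same ZT passed in limma, and 0 had an unadjusted p under 0.05. At these levels, log2(scaled count + 1) understates relative changes.

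Tfr2, the second transferrin receptor and a sensor of iron-loaded transferrin on hepatocytes, varied little. It ran from 142 to 240 scaled counts over all 56 livers, and its log2 amplitude was 0.13 ± 0.05 under DRF (limma, adjusted p = 0.158) and 0.06 ± 0.04 under NRF (adjusted p = 0.339). Neither its rhythm difference (adjusted p = 0.204) nor its rhythm-adjusted mean (log2 difference 0.05 ± 0.04, adjusted p = 0.620) passed.

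**Figure D2:**
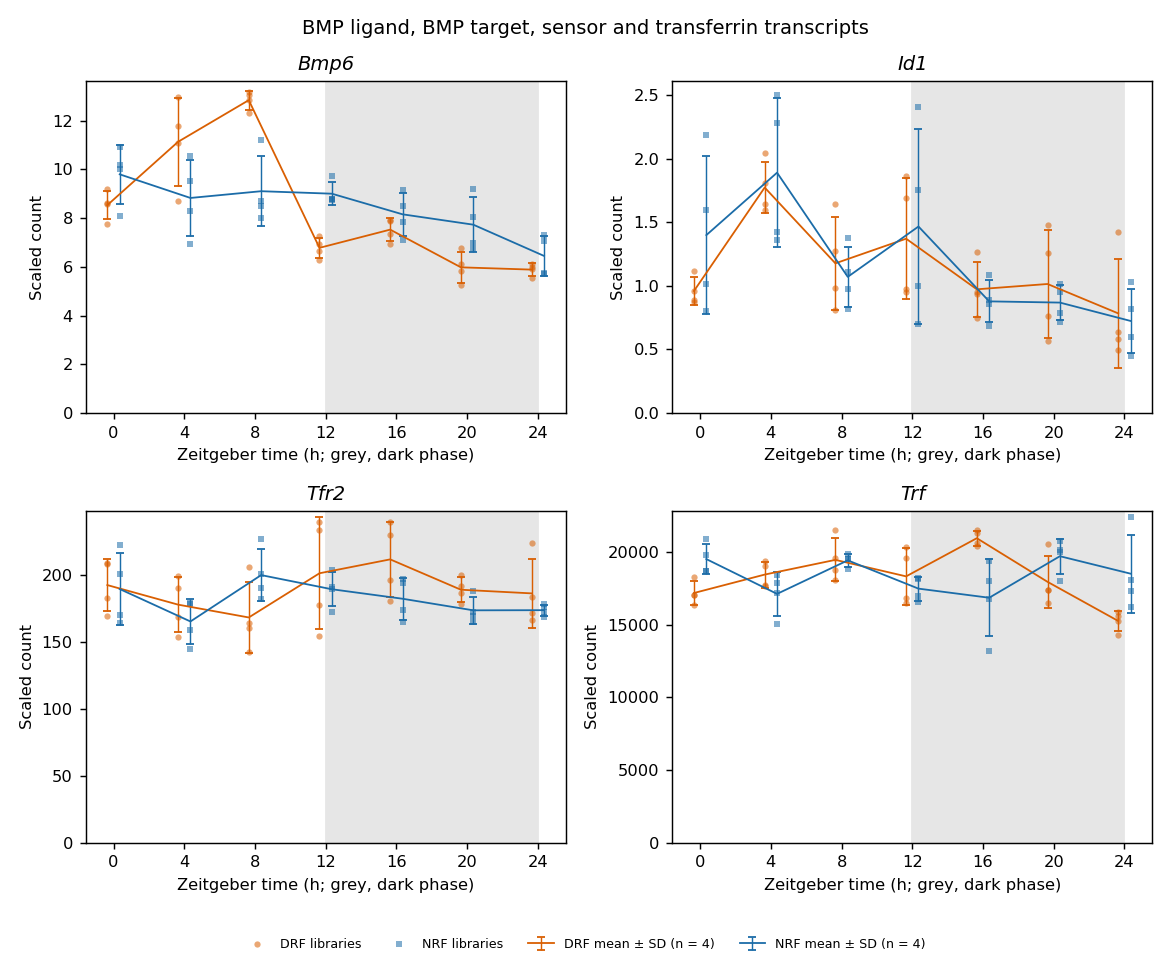
Scaled counts of Bmp6, Id1, Tfr2 and Trf (vertical axes) against ZT in hours in each of 56 livers, with group means and SD of 4 animals. Bmp6 under DRF is highest at ZT8, where the 4 animals lie between 12.3 and 13.2, and Tfr2 stays between 142 and 240 in all livers.

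Tfrc, the transferrin receptor that brings iron into cells, was the member with the widest daily range, and its timing turned with the feeding window. At ZT0 DRF animals had 5.97, 13.6, 7.38 and 9.39 scaled counts and NRF animals 7.97, 11.6, 18.0 and 9.21. By ZT4, DRF values had risen to 33.3, 31.0, 37.1 and 35.9 while NRF values were 21.05, 4.08, 5.16 and 3.90. At ZT8 the values were 54.7, 44.8, 34.1 and 61.3 under DRF and 4.19, 3.35, 3.11 and 4.25 under NRF. The groups did not overlap at ZT4 or ZT8. At ZT12 they overlapped, with 22.9, 13.9, 13.0 and 19.4 under DRF and 16.6, 6.98, 16.5 and 28.8 under NRF. At ZT16 DRF had 12.5, 6.51, 11.4 and 6.70 and NRF 46.4, 59.4, 32.9 and 63.6. At ZT20 DRF had 4.60, 6.34, 5.36 and 7.67 and NRF 61.0, 45.7, 57.3 and 65.4. In these dark-phase groups, every NRF animal was above every DRF animal. At ZT24 DRF had 5.65, 7.58, 8.74 and 10.3 and NRF 14.5, 16.4, 33.3 and 27.0.

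**Figure D3:**
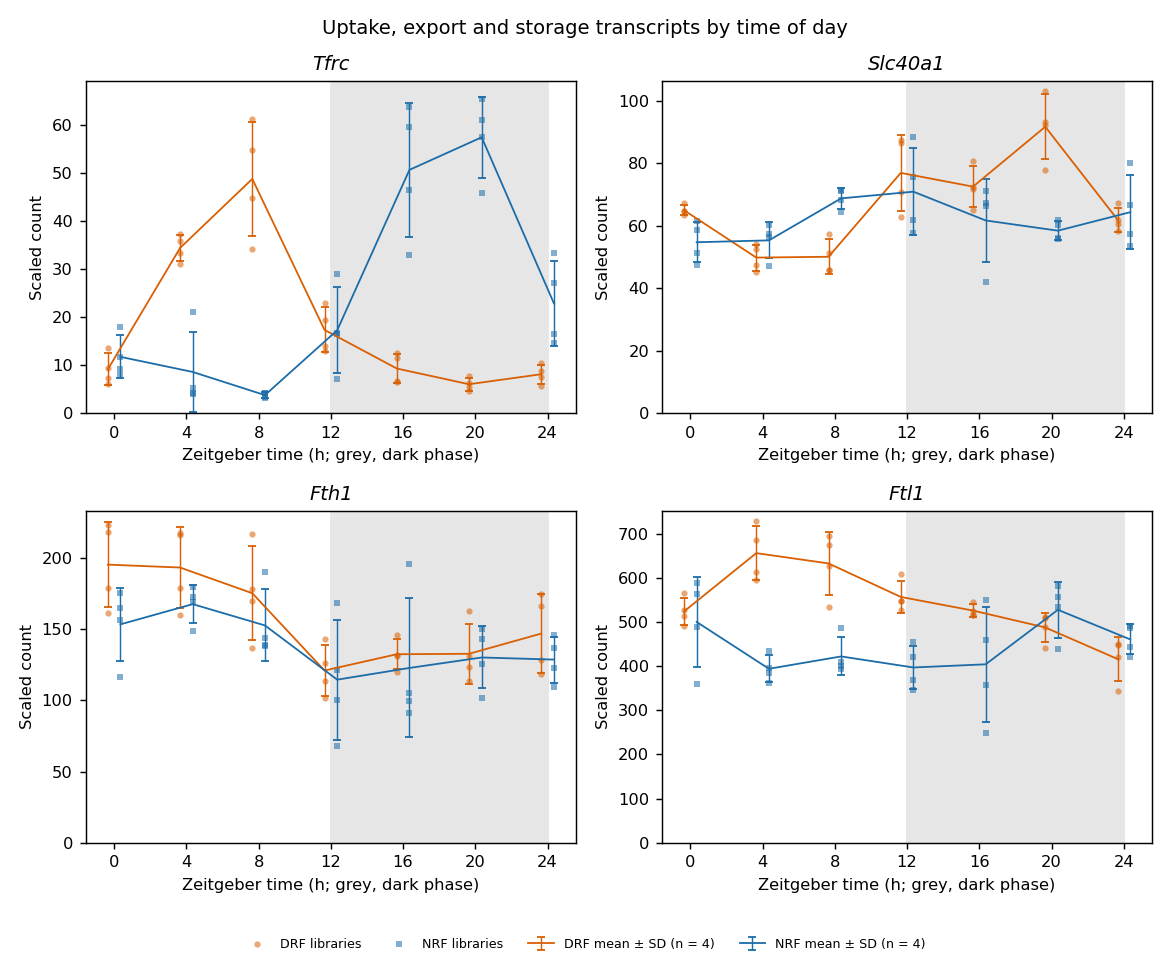
Scaled counts of Tfrc, Slc40a1, Fth1 and Ftl1 (vertical axes) against ZT in hours in each of 56 livers, with group means and SD of 4 animals. Tfrc is high at ZT4 and ZT8 under DRF and at ZT16 and ZT20 under NRF, whereas the highest group mean of Fth1 is at ZT0 under DRF and at ZT4 under NRF.

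The cosine fitted to Tfrc had a log2 amplitude of 1.45 ± 0.12 with a peak at 7.50 ± 0.29 h under DRF (limma, adjusted p = 2.01e-09) and 1.83 ± 0.18 with a peak at 18.2 ± 0.34 h under NRF (adjusted p = 3.60e-08). The peaks stood 10.7 ± 0.44 h apart, and the rhythm difference had an adjusted p of 3.14e-17. Called differences at the same ZT were 4.62-fold higher under DRF at ZT4 (log2 difference 2.21 ± 0.34, adjusted p = 2.72e-06), 10.3-fold higher at ZT8 (3.37 ± 0.34, adjusted p = 6.80e-10), 5.05-fold lower at ZT16 (-2.34 ± 0.34, adjusted p = 1.87e-06), 8.39-fold lower at ZT20 (-3.07 ± 0.34, adjusted p = 3.83e-09) and 2.53-fold lower at ZT24 (-1.34 ± 0.34, adjusted p = 0.00403). The rhythm-adjusted mean did not differ (log2 difference -0.10 ± 0.14, adjusted p = 0.761). NRF ZT4 replicate 1, at 21.05, stood apart from the 3.90 to 5.16 of the other 3 animals.

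Trf, which encodes the plasma iron carrier transferrin, was abundant and ran from 13222 to 22388 scaled counts. Its groups did not overlap at ZT0 and ZT24, where DRF was lower, or at ZT16, where DRF was higher. Nor did they overlap for DRF at ZT16 against NRF at ZT4, with DRF higher. With the settings of the report, none of its 13 comparisons between regimens was called by limma, with unadjusted p under 0.05 in 2 of 7 at the same ZT and in 1 of 6 taken 12 h apart. Its DRF amplitude was 0.13 ± 0.03 on the log2 scale (adjusted p = 0.105), the NRF amplitude 0.05 ± 0.04 (adjusted p = 0.835), and the difference had an adjusted p of 0.0964. The DRF rhythm was called by an exact Kendall rank test (adjusted p = 0.0169), on the deposited scale, with a pseudocount of 10, among genes with a mean of at least 1 and with the length index as covariate (adjusted p 0.00488 to 0.0252), and the difference in rhythm in the last 3 of these (adjusted p 0.0149 to 0.0461). With a pseudocount of 10 and among genes with a mean of at least 1, Trf was also called at ZT16, ZT24 and in DRF at ZT16 against NRF at ZT4 (adjusted p 0.00604 to 0.0400). On the deposited scale the NRF rhythm (adjusted p = 0.0434), DRF at ZT16 against NRF at ZT4 (adjusted p = 0.00179) and DRF at ZT8 against NRF at ZT20 (adjusted p = 0.0203) were called as well. The length behind its values could not be judged, so the size of its log2 changes is less certain than for members judged in all 56 libraries. Trf also shares 2108 exon bases on the same strand with the readthrough gene Gm20425.

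Slc40a1, the ferroportin gene, was lower under DRF than under NRF in the light phase at ZT8 and higher in the dark phase at ZT20. At ZT8 DRF had 45.8, 57.5, 51.3 and 45.7 scaled counts and NRF 71.6, 71.1, 64.4 and 68.2. At ZT20 the values were 93.4, 78.0, 92.3 and 103 under DRF and 61.8, 55.8, 60.1 and 56.2 under NRF. Groups were separate at both times, in opposite order. In limma the log2 difference was -0.46 ± 0.13 at ZT8 (1.37-fold lower, adjusted p = 0.0107) and 0.64 ± 0.13 at ZT20 (1.55-fold higher, adjusted p = 2.57e-04). The DRF amplitude was 0.40 ± 0.05 with a peak at 17.7 ± 0.45 h (adjusted p = 4.42e-06), the NRF amplitude 0.13 ± 0.06 (adjusted p = 0.156), and the rhythms differed (adjusted p = 6.33e-05). The ZT8 call was lost on the deposited scale (adjusted p = 0.0537). Kupffer cells also express Slc40a1, and their markers summed to group means of 723 to 938 under DRF, highest at ZT20, and 758 to 1066 under NRF, lowest at ZT20. Their part in the Slc40a1 values was not tested.

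Fth1, the ferritin heavy chain, was fitted with a peak early in the light phase under both regimens, of which the DRF rhythm passed the test. In DRF animals it was highest at ZT0, with 179, 161, 223 and 218 scaled counts, and lowest at ZT12, with 101, 143, 113 and 126. In NRF animals it was highest at ZT4, with 169, 149, 180 and 172, and lowest at ZT12, with 121, 169, 68.1 and 99.9. The DRF peak fell at 3.77 ± 0.80 h (log2 amplitude 0.32 ± 0.07, limma, adjusted p = 0.00179) and the NRF peak at 3.78 ± 1.3 h (0.26 ± 0.09, adjusted p = 0.0601), a gap of -0.013 ± 1.5 h. The difference in rhythm did not pass (adjusted p = 0.911), which does not show that the rhythms were alike. The NRF rhythm passed in 7 of 69 settings. It passed without NRF ZT16 replicate 3, whose value of 195 lay above the 91.0 to 105 of its group (limma, adjusted p = 0.00506). Other such settings were the fit without the ZT24 libraries (adjusted p = 0.0409) and genes with a mean of at least 1 (adjusted p = 0.0388). The rest each left out 1 other NRF library. None of 7 comparisons at the same ZT was called in limma, and 0 had an unadjusted p under 0.05.

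Ftl1, the ferritin light chain, was higher under DRF from ZT4 to ZT16 and in its daily mean, and its fitted rhythm differed between regimens. At ZT4 the DRF animals had 728, 596, 614 and 686 scaled counts and the NRF animals 362, 435, 395 and 384. At ZT8 the values were 627, 535, 674 and 695 against 400, 393, 486 and 409, and at ZT12 547, 547, 526 and 608 against 346, 454, 368 and 420. At each of these times every DRF animal was above every NRF animal. The log2 differences were 0.73 ± 0.14 at ZT4 (limma, adjusted p = 9.61e-05), 0.58 ± 0.14 at ZT8 (adjusted p = 0.00278), 0.49 ± 0.14 at ZT12 (adjusted p = 0.0109) and 0.44 ± 0.14 at ZT16 (adjusted p = 0.0260). No difference was called at ZT0 (0.09, adjusted p = 0.778), ZT20 (-0.11, adjusted p = 0.722) or ZT24 (-0.15, adjusted p = 0.587), and at ZT20 and ZT24 the DRF means of 488 and 416 were below the NRF means of 528 and 461. The rhythm-adjusted mean was 1.26-fold higher (log2 difference 0.34 ± 0.06, adjusted p = 8.37e-05), the DRF peak lay at 8.17 ± 0.77 h (adjusted p = 0.00145), the NRF amplitude was 0.17 ± 0.07 (adjusted p = 0.115), and the rhythms differed (adjusted p = 5.76e-04).

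For Ftl1, 44.7% of 100-base stretches also occur in 6 other genes, so reads of these copies are uncertain. Of these, Gm22133, with 109 exon bases shared on the same strand, had a mean of 57.8 scaled counts, or 11.7% of the Ftl1 count. Per kilobase it had 530 against 368 for Ftl1. Ftl1-ps1 had a mean of 35.0 scaled counts, or 7.10% of the Ftl1 count. Gm22133 was rhythmic under DRF (limma, adjusted p = 6.30e-05) with a peak at 5.95 ± 0.55 h, but in the shared bases its reads cannot be told apart from those of Ftl1. On the deposited scale the DRF rhythm of Ftl1 was lost (adjusted p = 0.269). Its ZT16 call was lost without DRF replicate 1 or 4 or NRF replicate 1 or 3 (adjusted p 0.0506 to 0.283), on the deposited scale (adjusted p = 0.142) and with the length index as covariate (adjusted p = 0.0526). The ZT12 call was lost without NRF replicate 1 (adjusted p = 0.0501).

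Over the 70 comparisons at the same ZT, 18 were called, 10 of them higher under DRF, with the shares of all genes given by time below. Most members were called at ZT8, 5 of 10 (13% of all genes), and ZT4, 4 of 10 (20.5%). ZT20 had 3 (13.8%), ZT12 and ZT16 had 2 each (15.2% and 15.2%), and ZT0 and ZT24 had 1 each (16.1% and 14.1%). Rhythms passed in 7 of 10 members under DRF (37.9% of all genes) and in 1 under NRF, Tfrc (38.7%). In 5 members the rhythms differed between regimens (38.9%): Hamp, Bmp6, Tfrc, Ftl1 and Slc40a1. The rhythm-adjusted mean differed in 2, Hamp2 and Ftl1, both higher under DRF (6.86%), and its median was -0.00173 on the log2 scale over all genes tested.

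**Figure D4:**
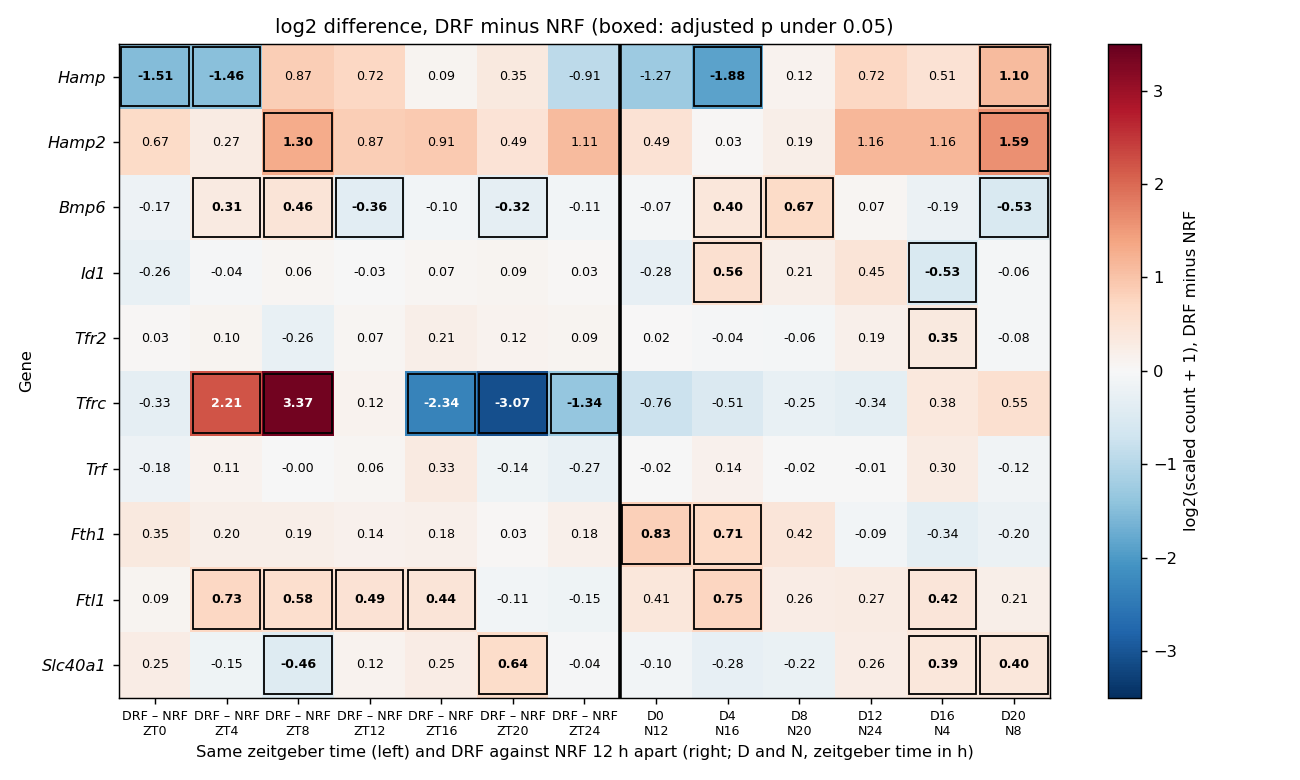
Log2 difference of DRF minus NRF for the 10 members (rows) at the 7 matched ZT and at 6 pairs of times 12 h apart (columns), as colour on a scale centred at 0. Boxes mark an adjusted p under 0.05, 18 of 70 at the same ZT and 15 of 60 at times 12 h apart.

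Comparing DRF with NRF 12 h later or earlier matches the hours since the start of the light or dark phase in which food was given, under opposite light. Of these 60 comparisons 15 were called, 12 of them higher under DRF, in 8 members. By pair, 1 member was called for DRF ZT0 against NRF ZT12 (2.72% of all genes), 5 for DRF ZT4 against NRF ZT16 (14.8%), 1 for DRF ZT8 against NRF ZT20 (11.6%), 0 for DRF ZT12 against NRF ZT24 (1.59%), 4 for DRF ZT16 against NRF ZT4 (17.4%) and 4 for DRF ZT20 against NRF ZT8 (16.4%). In the pair with 0 called by limma, 3 members had an unadjusted p under 0.05. With the length index as covariate 8 of the 60 were called.

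Tfrc, which differed most at the same ZT, was called in none of the 6 pairs by limma, with 1 unadjusted p under 0.05 and log2 differences between -0.76 and 0.55. DRF ZT16 against NRF ZT4 was called without NRF ZT4 replicate 1 (log2 difference 0.89, adjusted p = 0.0397). DRF ZT0 against NRF ZT12 was called without NRF ZT12 replicate 2 (-1.11, adjusted p = 0.0462). DRF ZT20 against NRF ZT8, whose groups did not overlap, was called on the deposited scale (0.37, adjusted p = 0.0450). Hamp was 3.69-fold lower in DRF at ZT4 than in NRF at ZT16 (log2 difference -1.88 ± 0.40, limma, adjusted p = 0.00116) and 2.14-fold higher in DRF at ZT20 than in NRF at ZT8 (1.10 ± 0.40, adjusted p = 0.0492). The latter call sat at the threshold and held in 20 of 65 settings. Without DRF ZT20 replicate 1 its adjusted p was 0.152, and without NRF ZT8 replicate 1 it was 0.210. Hamp2 was 3.02-fold higher in DRF at ZT20 than in NRF at ZT8 (1.59 ± 0.42, adjusted p = 0.00660).

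Bmp6 was called in 3 of the 6 pairs by limma, higher in DRF at ZT4 than in NRF at ZT16 (log2 difference 0.40 ± 0.10, adjusted p = 0.00681), higher in DRF at ZT8 than in NRF at ZT20 (0.67 ± 0.10, adjusted p = 3.59e-05) and lower in DRF at ZT20 than in NRF at ZT8 (-0.53 ± 0.10, adjusted p = 2.68e-04). Those 3 calls were lost with the length index as covariate, with adjusted p of 0.930, 0.0649 and 0.118. Ftl1 was higher in DRF at ZT4 than in NRF at ZT16 (0.75 ± 0.14, adjusted p = 3.41e-04) and in DRF at ZT16 than in NRF at ZT4 (0.42 ± 0.14, adjusted p = 0.0316). The first Ftl1 call was lost with the length index as covariate (log2 difference 0.42, adjusted p = 0.225) and on the deposited scale (adjusted p = 0.0864). The second was lost without any 1 of DRF replicates 1 to 4 or of NRF replicates 1, 3 or 4 (adjusted p 0.0516 to 0.0829).

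Fth1 was 1.77-fold higher in DRF at ZT0 than in NRF at ZT12 (log2 difference 0.83 ± 0.20, limma, adjusted p = 0.0117) and 1.64-fold higher in DRF at ZT4 than in NRF at ZT16 (0.71 ± 0.20, adjusted p = 0.0116). The first was lost without DRF ZT0 replicate 3 (adjusted p = 0.0547) or NRF ZT12 replicate 3 (adjusted p = 0.133), and the second without NRF ZT16 replicate 1 or 2 (adjusted p = 0.0530 and 0.0529). Both were lost with the length index as covariate (adjusted p = 0.0810 and 0.662), and the second also on the deposited scale (adjusted p = 0.132).

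Id1 was likewise higher in DRF at ZT4 than in NRF at ZT16, with 2.04, 1.59, 1.81 and 1.65 against 1.09, 0.885, 0.684 and 0.855 scaled counts (log2 difference 0.56 ± 0.18, limma, adjusted p = 0.0260). It was lower in DRF at ZT16 than in NRF at ZT4, with 0.744, 0.934, 1.26 and 0.951 against 1.36, 1.42, 2.50 and 2.28 (-0.53 ± 0.18, adjusted p = 0.0304). In both pairs the animals sampled at ZT4 were the higher ones, without overlap. The first was lost without DRF ZT4 replicate 1 or 3 or NRF ZT16 replicate 3 (adjusted p 0.0544 to 0.0769), and the second without DRF ZT16 replicate 1, 2 or 4 or NRF ZT4 replicate 3 or 4 (adjusted p 0.0593 to 0.119). Both were lost with the length index as covariate (adjusted p = 0.685 and 0.0641).

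Slc40a1 was higher in DRF at ZT16 than in NRF at ZT4 (log2 difference 0.39 ± 0.13, limma, adjusted p = 0.0286) and in DRF at ZT20 than in NRF at ZT8 (0.40 ± 0.13, adjusted p = 0.0227), and Tfr2 in DRF at ZT16 than in NRF at ZT4 (0.35 ± 0.12, adjusted p = 0.0293). The Slc40a1 calls were lost without DRF ZT16 replicate 2, 3 or 4 or NRF ZT4 replicate 1 (adjusted p 0.0509 to 0.113), and without DRF ZT20 replicate 3 or 4 or NRF ZT8 replicate 3 or 4 (adjusted p 0.0515 to 0.0866). The call in DRF at ZT20 was also lost with the length index as covariate (log2 difference 0.30, adjusted p = 0.220). The Tfr2 call was lost without DRF ZT16 replicate 2 or 3 or NRF ZT4 replicate 2 or 4 (adjusted p 0.0758 to 0.118).

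The same clock time 1 day apart was sampled as ZT0 and ZT24. Bmp6 was the 1 member called, under DRF (3.09% of all genes) with 7.77, 8.60, 8.57 and 9.17 scaled counts at ZT0 against 6.01, 5.90, 6.10 and 5.53 at ZT24 (log2 difference -0.47 ± 0.10, limma, adjusted p = 0.00805). It was also the 1 member called under NRF (7.88% of all genes), with 8.06, 10.2, 10.9 and 10.02 against 7.04, 5.70, 7.29 and 5.75 (-0.53 ± 0.10, adjusted p = 9.32e-04). At ZT24 every animal was below every ZT0 animal of its regimen. The length index averaged -0.125 and 0.180 at ZT0 and ZT24 under DRF, and -0.186 and 0.186 under NRF. With it as covariate, 0 members were called in either regimen by limma and 0 had an unadjusted p under 0.05, the Bmp6 values being -0.16 (adjusted p = 0.539) and -0.16 (adjusted p = 0.533). The index did not overlap between ZT0 and ZT24 under DRF (at most -0.0646 against at least 0.121) or NRF (at most 0.0369 against at least 0.0554). This fit therefore cannot tell a change between the days from a change with the index.

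Over 56 livers, Hamp was set against 6 genes, among them BMP targets and STAT3 and acute phase genes. Deviations from the group means of log2 values were used, to ask whether animals of 1 group with more Hamp also had more of these. Smad7, a target and inhibitor of SMAD signalling, gave Pearson r = 0.376 (permutation p = 0.00478, adjusted over the 6 genes 0.0218) and Spearman rho = 0.425 (permutation p = 0.00446, adjusted 0.0268), and r was 0.354 without the 2 livers farthest from the median of Smad7. Hamp2 gave r = 0.383 (permutation p = 0.00727, adjusted 0.0218) and rho = 0.361 (permutation p = 0.0205, adjusted 0.0614), and r was 0.294 without the 2 farthest. Without either NRF ZT8 replicate 1 or replicate 3 neither relation passed, with adjusted permutation p of 0.0550 for both genes without replicate 1, and of 0.0643 for Smad7 and 0.0711 for Hamp2 without replicate 3. Smad7 alone was also lost without NRF ZT0 replicate 4 (adjusted permutation p = 0.0507), and Hamp2 alone without DRF ZT0 replicate 3 (0.0530) or NRF ZT8 replicate 4 (0.0548).

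Id1 gave r = 0.238 (permutation p = 0.0538, adjusted 0.108) and rho = 0.235 (permutation p = 0.115, adjusted 0.230), and Bmp6 r = 0.238 (permutation p = 0.237, adjusted 0.355) and rho = 0.138 (permutation p = 0.384, adjusted 0.576). The STAT3 and acute phase genes Socs3 and Saa1 stood near 0, with r = 0.021 and rho = -0.057 for Socs3 (adjusted permutation p = 0.883 and 0.791). For Saa1, r was -0.040 and rho 0.041 (adjusted permutation p = 0.883 and 0.791). Socs3 had a mean of 1.60 scaled counts, where log2(scaled count + 1) understates relative changes. Within the 28 NRF livers Smad7 gave r = 0.632 (permutation p = 2.6e-04, adjusted 0.00156) and rho = 0.701 (permutation p = 1.1e-04, adjusted 6.6e-04), and r was 0.592 without the 2 farthest. Within the 28 DRF livers Smad7 gave r = 0.163 (permutation p = 0.467, adjusted 0.690) and rho = 0.0755 (permutation p = 0.743, adjusted 0.892). The difference between regimens in this relation was not tested.

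**Figure D5:**
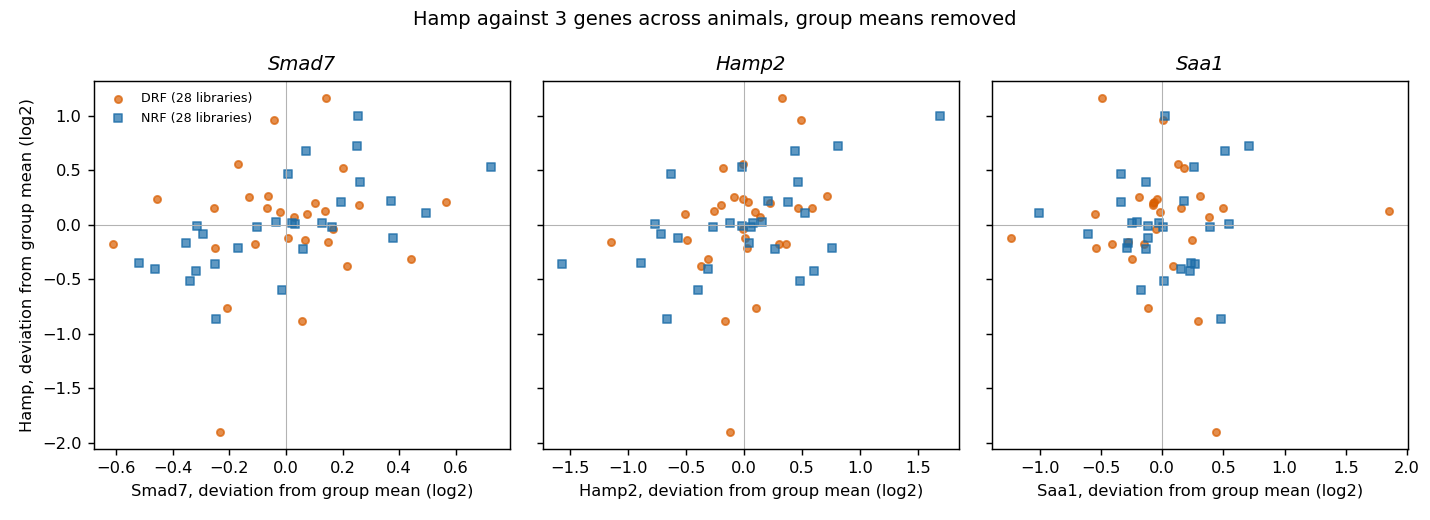
Deviation of Hamp from its group mean (vertical axes, log2) against the deviation of Smad7, Hamp2 and Saa1 (horizontal axes, log2) in each of 56 livers, coloured by regimen. Pearson r over all livers is 0.376 for Smad7, 0.383 for Hamp2 and -0.040 for Saa1.

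By likeness over the 14 group means of log2 values, given as a description among 13748 genes, the genes most like Hamp were Prcp (r = 0.888), 9430015G10Rik (0.881), Trp53inp2 (0.852), Notch1 (0.825) and Dgcr8 (0.822). Among those most like Tfrc were Abhd6 (r = 0.952) and Smyd2 (0.941). Lrrc75a (r = 0.8997), Gm13179 (0.85) and Adora2a (0.849) were most like Id1, and Ndufb8 (0.937), Bag1 (0.932) and Apoc1 (0.925) most like Fth1. Each r rests on group means that share time of day and length index.

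Other genes of hepcidin control also differed in fitted rhythm between regimens, in amplitude, peak time or both. Of 19 tested genes of BMP and SMAD control, rhythms passed in 15 under DRF and 11 under NRF and differed in 10, while 0 differed in rhythm-adjusted mean by limma. Over all genes the shares were 37.9% under DRF, 38.7% under NRF, 38.9% for the difference and 6.86% for the mean, and the counts of the lists that follow are to be read against these. Hfe, a sensor partner of transferrin receptors, had its DRF peak at 12.0 ± 0.46 h and its NRF peak at 22.1 ± 0.74 h (adjusted p of the difference 8.40e-11). Hjv, the BMP co-receptor hemojuvelin, had these peaks at 10.05 ± 1.3 h and 0.164 ± 0.69 h (adjusted p = 8.92e-07), and Bmp2, the other endothelial BMP ligand, at 1.17 ± 1.2 h and 7.80 ± 0.40 h (adjusted p = 2.81e-07). In the STAT3 and acute phase list (12 tested), rhythms passed in 5 under DRF and 8 under NRF, differed in 6, and 2 differed in mean, 1 higher and 1 lower, against 37.9%, 38.7%, 38.9% and 6.86% of all genes. The fibrinogen chains Fga, Fgb and Fgg peaked at 15.9 ± 0.45, 16.9 ± 0.46 and 15.8 ± 0.38 h under DRF and at 5.33 ± 0.42, 5.99 ± 0.48 and 5.14 ± 0.41 h under NRF (adjusted p of the difference 1.58e-12, 3.30e-11 and 4.24e-14).

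Among genes of iron uptake and reduction, rhythms passed in 7 of 7 under both regimens and differed in 6, and 0 differed in mean by limma, against 37.9%, 38.7%, 38.9% and 6.86% of all genes. Slc11a2, the iron transporter DMT1, had its DRF peak at 10.4 ± 0.39 h and its NRF peak at 20.7 ± 0.32 h (adjusted p of the difference 9.82e-18), Slc39a8 at 17.3 ± 0.50 and 3.24 ± 0.42 h (5.20e-12), and Steap3, a ferrireductase, at 15.0 ± 1.2 and 3.06 ± 0.45 h (2.69e-09). In storage, chaperones and export, rhythms passed in 4 of 5 under DRF and 2 under NRF and differed in 4, and 1 gene, the iron chaperone Pcbp2, was higher in mean under DRF. Pcbp2 peaked at 20.3 ± 1.0 and 13.3 ± 0.50 h (adjusted p of the difference 4.02e-07). Cp, the ferroxidase ceruloplasmin, peaked at 17.7 ± 0.52 h and Pcbp1 at 5.60 ± 0.44 h under DRF, while their NRF rhythms did not pass (adjusted p = 0.0629 and 0.395), and the adjusted p of the difference was 8.06e-06 and 4.46e-05.

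The list around the iron regulatory proteins held Aco1, Ireb2 and Fbxl5. Rhythms passed in 3 of 3 of these genes under DRF and in 1 under NRF, and differed in 2. Aco1 had its DRF peak at 11.7 ± 0.71 h and its NRF peak at 18.6 ± 0.44 h (adjusted p of the difference 3.75e-08) and was higher in mean under DRF (log2 difference 0.10 ± 0.03, limma, adjusted p = 0.0279), and Ireb2 peaked at 18.0 ± 0.47 h under DRF, while its NRF rhythm did not pass (adjusted p = 0.318, and 3.28e-05 for the difference). Of 7 genes of mitochondrial iron and iron-sulfur clusters, 6 were rhythmic under each regimen, 5 differed in rhythm and 3 were higher in mean under DRF, against 37.9%, 38.7%, 38.9% and 6.86% of all genes. Glrx5 peaked at 4.37 ± 0.49 and 14 ± 0.63 h (3.82e-10) and Slc25a37, which encodes mitoferrin, at 5.29 ± 0.91 and 14.5 ± 0.97 h (1.17e-04). In heme and hemoglobin scavenging, rhythms passed in 2 of 5 under DRF and 1 under NRF and differed in 1, Hpx (adjusted p = 0.0360), the heme carrier hemopexin, which was also lower in mean under DRF (log2 difference -0.13 ± 0.04, adjusted p = 0.0471).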

How the data were processed

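RNA-seq of whole liver was made by the submitters from ribosomal RNA-depleted, strand-specific paired-end libraries (the molecule label reads polyA RNA). Their processing notes name CASAVA 1.8, featureCounts 1.5.0-p3, mm10 and GRCm38.p6. Whether counting used strand is not given in the sources used here. The gene table that the authors deposited names its values TPM, but they are a score: value times exon length followed a logarithm of 1 plus a scaled whole count, in each library with its own constants. From these deposited scores whole counts were recovered. Held-out values with a recovered count from 0.5 to 20000 came within 0.05 of a whole number in 96.2% to 99.2%, against 10% by chance. Since 1 scaled count stands for 304 to 723 recovered counts, values of Hamp, Hamp2, Trf, Ftl1 and Tfr2 lay above the range of this check. The exon length was that of GENCODE vM21 for 23135 genes and a searched one for 2063 (Fth1 used 866 in place of 3469 bases), and for 72 it was not judged (Trf among them). Hamp could be judged in 6 libraries and Hamp2 in 7. The 145 genes that could not be rebuilt were left out. Transcript and circular RNA tables were not used.

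The tests had been set for linear TPM and were run on log2(scaled count + 1) of the 25270 genes instead, with limma 3.58.1 (R 4.3.3), empirical Bayes with a trend, and Benjamini-Hochberg adjustment over all genes, with a threshold of 0.05. The filter on a mean deposited value of 0.1 removed 0 genes. Group comparisons used 14 group means over all 56 libraries, rhythms a 24-h cosine and sine per regimen, and rhythm differences the regimen interaction. Peak times carry delta-method SE, and errors of differences and amplitudes are SE. Correlations used 100000 permutations within groups, two-sided. Genes named besides the members were those of each list with the smallest adjusted p for the rhythm difference, up to 3, and those most alike over group means. A few genes that this rule names are not reported here. Alternatives were another scaling, values as deposited, pseudocounts of 0.1 and 10, a mean of at least 1, a length-index covariate, a replicate block, leaving out ZT0 or ZT24 or each library, an F test over times and an exact Kendall test. The scripts were tested on simulated data. Members and lists were chosen with earlier results of these data known. Labels give separate animals, and p-values measure the spread between them.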

Additional observations from a re-analysis of the deposited data

Results flagged for a closer look

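In 8 of 140 groups of 4 animals, 1 animal stood farther from the rest than Dixon's 95% critical value for 4 samples, against about 5% of groups by chance. Hamp2 was 3271 scaled counts in NRF ZT8 replicate 3, against 637 to 770 in the other 3 animals, and 594.6 in NRF ZT12 replicate 1, against 2400 to 2675. Bmp6 was 9.717 in NRF ZT12 replicate 1, against 8.73 to 8.79, a small departure in a tight group. Id1 was 1.42 in DRF ZT24 replicate 1, against 0.497 to 0.635. Tfrc was 21.05 in NRF ZT4 replicate 1, against 3.90 to 5.16. Fth1 was 190.3 in NRF ZT8 replicate 3, against 138 to 144, and 195.4 in NRF ZT16 replicate 3, against 91.0 to 105. Ftl1 was 486 in NRF ZT8 replicate 3, against 393 to 409. NRF ZT8 replicate 3 thus holds 3 of the 8, for Hamp2, Fth1 and Ftl1, all high.

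The rhythm of 5 members differed between DRF and NRF by the interaction test in limma, with adjusted p of 0.0002811 for Hamp, 0.009831 for Bmp6, 3.137e-17 for Tfrc, 0.0005762 for Ftl1 and 6.333e-05 for Slc40a1. These 5 passed in each of the 56 fits that left out 1 library.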

How the results depend on the processing

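The count of comparisons called at the same ZT stayed within 1.5 times of 18 under each alternative and at 16 to 20 when 1 library was left out. Of comparisons 12 h apart, 8 were called with the length index as covariate against 15, and 10 to 16 without 1 library. Members rhythmic under DRF numbered 6 to 8 without 1 library, members differing in rhythm 5 in each such fit, and in rhythm-adjusted mean 2. Members rhythmic under NRF, 1 in the report, numbered 3 with values as deposited, with the length index as covariate, without the ZT24 libraries and by the F test over the 7 times, 2 without the ZT0 libraries and among genes with a mean of at least 1, and 1 to 4 without 1 library. Between ZT24 and ZT0, 0 members were called with the length index under DRF and under NRF, 6 under NRF with values as deposited, and 1 (DRF) or 1 to 2 (NRF) without 1 library. Correlations of Hamp past the threshold were 0 to 3 without 1 library. An exact Kendall test called 8 members under DRF and 1 under NRF. The cause of these changes was not tested.

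On the deposited scale 4 differences not called on the main scale were called with the opposite sign (limma), at 0.059 for Trf in DRF ZT20 against NRF ZT8 (adjusted p = 0.0324) and, for ZT24 minus ZT0 under NRF, 0.080 for Tfr2 (0.0346), 0.088 for Ftl1 (0.0176) and 0.094 for Trf (6.10e-04).

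Replicate numbers do not pair animals: deviations of same-numbered libraries correlated with a median r of 0.005 (-0.375 to 0.304), against -0.002 for other numbers. With the replicate block, 18 comparisons were called at the same ZT, 14 at 12 h apart (Hamp in DRF ZT20 against NRF ZT8 was lost, adjusted p = 0.0508), 7 rhythms under DRF, 1 under NRF, 5 rhythm differences and 2 means.

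With 4 animals per group, comparisons at single times had an SE of about 0.4 (log2) for the hepcidin genes.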
